A study of Mus musculus with 6 samples.

Results

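Collagen genes were followed by type in the mammary stroma of mice with and without the retinoic acid receptor gene Rarb. The members were the genes whose probe sets carry, in the authors' deposited table, a lone symbol made of Col, a number, the letter a and a number. They numbered 38 of 20519 named genes, measured by 76 of 45037 probe sets, and fell into 11 fibrillar, 8 basement membrane and 19 other collagens. Where a gene had several probe sets, the one brightest on average represented it, and 13 of the 38 genes had no second probe set. The probe set of Col6a3 carries a second symbol beside it and is therefore no member.

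The tissue was the cleared mammary fat pad, the fat and connective tissue into which mammary ducts grow, at 4 weeks of age. There were 3 arrays from Rarb -/- mice, called Rarb-null, and 3 from Rarb +/+ littermates, called wild type. The text attached to all 6 samples also names ErbB2, without saying what the animals carried, and how many mice stand behind an array is not stated, so every p-value rests on array-to-array spread alone, which may be technical. Values are the authors' log2 RMA signals of a probe set, on which 1 unit is a 2-fold difference in signal, and a difference is the Rarb-null mean less the wild-type mean. In such bulk tissue, fewer cells of a type and less RNA per cell cannot be told apart.

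Collagens are secreted or membrane-bound proteins whose chains wind into a triple helix. Fibrillar collagens, foremost types I, III and V, assemble into the fibres that give connective tissue its strength and are made mainly by fibroblasts. Type IV chains form the sheet-like network of basement membranes, which surround adipocytes, vessels and the epithelial ducts of the mammary gland, and types XV and XVIII sit in or near the same membranes. The other types decorate fibrils, form fine filaments or short-chain networks, anchor epithelia to the stroma, or span cell membranes.

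Promoter sequences from RefSeq on the GRCm38.p6 build were matched by symbol to 30 of the 38 genes, in 33 windows of 250 bases before to 50 bases after the start. The upstream parts are printed for Col1a2 and Col3a1, fibrillar genes whose signals were high and low on the same arrays, and for Col8a1, the gene whose groups did not overlap. They lie at chr6:4505368-4505617 on the plus strand, chr1:45311288-45311537 on the plus strand and chr16:57754738-57754987 on the minus strand. Capitals mark the TATA box core TATAAA, the CCAAT box and the GC box core GGGCGG, on either strand. The last line covers chr8:11312801-11312830 on the plus strand, where Col4a1 and Col4a2 start on opposite strands, and its capitals mark the 22 bases that both transcribed starts share.
Col1a2: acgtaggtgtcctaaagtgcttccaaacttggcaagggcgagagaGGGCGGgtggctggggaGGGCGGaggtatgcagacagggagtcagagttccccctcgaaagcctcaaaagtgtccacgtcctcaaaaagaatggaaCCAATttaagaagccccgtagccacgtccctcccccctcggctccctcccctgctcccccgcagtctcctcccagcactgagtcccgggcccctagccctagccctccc
Col3a1: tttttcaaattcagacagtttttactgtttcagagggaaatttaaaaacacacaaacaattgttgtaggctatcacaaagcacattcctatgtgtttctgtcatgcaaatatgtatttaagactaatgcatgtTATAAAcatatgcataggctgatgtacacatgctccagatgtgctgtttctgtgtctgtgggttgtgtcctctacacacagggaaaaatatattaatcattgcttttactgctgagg
Col8a1: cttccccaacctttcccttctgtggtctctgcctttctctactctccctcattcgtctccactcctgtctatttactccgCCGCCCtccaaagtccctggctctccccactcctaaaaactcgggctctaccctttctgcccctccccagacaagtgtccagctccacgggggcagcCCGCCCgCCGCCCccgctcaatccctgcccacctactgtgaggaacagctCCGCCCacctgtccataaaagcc
Col4a1 and Col4a2: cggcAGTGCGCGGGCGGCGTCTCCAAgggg

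The printed 250 bases were 62.0% G or C in Col1a2, 35.2% in Col3a1 and 60.8% in Col8a1. Motifs were searched on both strands of the whole windows. GGGCGG occurred in 20 of the 33 collagen windows, and in 35.7% of all 32851 promoter windows. CCAAT occurred in 12 collagen windows and in 37.4% of all windows, and TATAAA in 5 collagen windows and in 13.6% of all. AGGTCA, the hexamer bound by retinoic acid and related nuclear receptors, occurred in the windows of Col4a4, Col7a1, Col9a1, Col11a1, Col20a1, Col23a1 and Col24a1, and in 16.3% of all windows. Direct repeats of AGGTCA with any 5 bases between, which contain the single hexamer, were found in 0 collagen windows and in 3 of all 32851, and those with any 2 bases between likewise in 0 and 3.

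Rarb signal lay between 6.50 and 7.41 on Rarb-null arrays and between 6.01 and 6.95 on wild-type arrays, and it is not known whether its probe set lies in the deleted part, so it checks nothing. Fibroblast markers carried signal on every array, between 12.30 and 12.55 for Pdgfra, a receptor of stromal fibroblasts. Pdgfrb and Thy1 ranged more widely, from 9.65 to 11.54 and from 8.57 to 10.07, both lowest on Rarb-null replicate 3. Epithelial markers also carried signal in this tissue labelled as cleared, with Epcam, an epithelial adhesion molecule, between 12.71 and 13.61. Cell cycle genes, 9 of 9 with a higher Rarb-null mean, divided the arrays within each genotype. Their mean lay 1.47, 1.46 and 1.52 above the mean of the 6 arrays on Rarb-null replicates 1 and 2 and wild-type replicate 2, and at -1.68, -1.25 and -1.52 on Rarb-null replicate 3 and wild-type replicates 1 and 3. Brown adipocyte markers stood at 2.26 on Rarb-null replicate 3 and between -1.42 and 0.17 on the 5 others. No detection calls come with the values, so none can be called absent.

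Collagen transcripts did not separate Rarb-null from wild-type stroma at the threshold used. With limma, an adjusted p under 0.05 was reached by 0 of 38 genes and by 0.0% of all 20519 genes, and the smallest adjusted p of a collagen was 0.908. An unadjusted p under 0.05 was reached by 1 collagen gene, Col8a1, against 5.3% of all genes, and by 2 of 76 collagen probe sets against 5.22% of all probe sets. The groups did not overlap in 1 of 38, again Col8a1, against 10.6% of all genes, or 4.01% counting only those higher on Rarb-null arrays. A difference of at least 1.5-fold was seen in Col9a1, Col9a3 and Col11a1, 3 of 38, against 2.27% of all genes. The mean was lower on Rarb-null arrays in 18 of 38 collagen genes, against 52.9% of all genes, and the median difference was 0.01 log2 in collagens and -0.01 log2 in all genes.

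At the chosen probe sets most of these differences were bounded, but a smaller share than in all genes. For 30 of 38 collagen genes (78.9%), the 95% interval of the difference lay within 2-fold either way, against 92.7% of all genes. Among genes with a mean of at least 6 it did so for 24 of 32, against 90.4%. The 8 genes with wider intervals were Col4a5, Col5a1, Col7a1, Col9a1, Col9a3, Col11a1, Col14a1 and Col17a1. Other probe sets of Col1a2 and Col3a1 also had wider intervals, with upper ends of up to 1.47 and 1.81 log2. In 8 of 38 genes the difference exceeded the SD within groups, against 30.0% of all genes. Collagen signals spread over a median range of 0.79 log2 across the 6 arrays, against 0.49 log2 in all genes, and 12 of the 38 had a range above the ninetieth percentile of all genes.

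**Figure D1:**
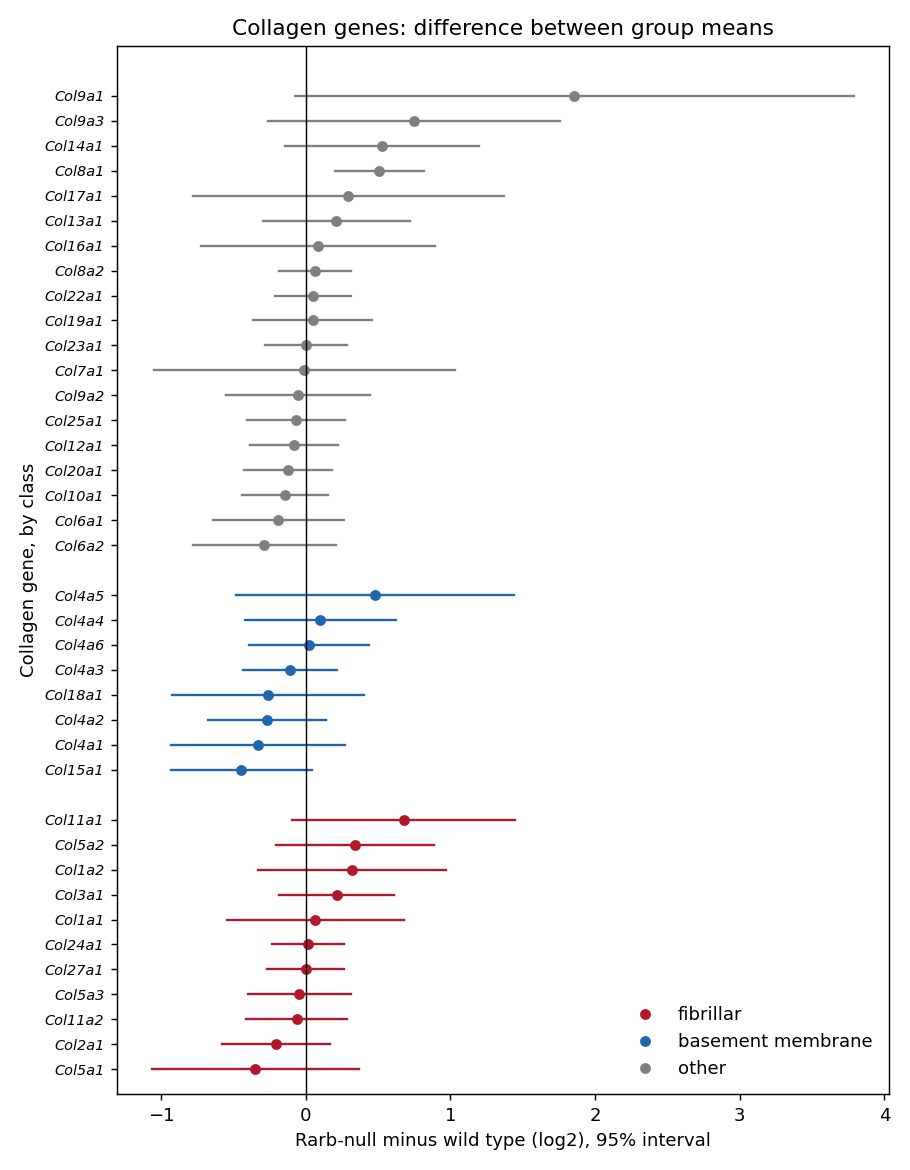
Difference between group means, Rarb-null minus wild type on the log2 scale, for each of the 38 collagen genes by class, with points for the difference and lines for the 95% interval from limma. The interval of Col8a1, from 0.20 to 0.82, is the only one that excludes 0 and is not adjusted for the number of genes.

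Of the 11 fibrillar genes 4 had a lower Rarb-null mean, with a median difference of 0.02 log2, and its sign turned when each array was centred on its median (-0.0090), without wild-type replicate 1 (-0.06) and without Rarb-null replicate 1 (-0.04). Of the 8 basement membrane genes 5 had a lower Rarb-null mean, with a median difference of -0.18 log2. With the type IV chains alone, without Col15a1 and Col18a1, that median was -0.04 log2. Without wild-type replicate 3 it was -0.09 log2. Of the 19 other collagens 9 were lower on average, and their median was 0.05 log2, where all 20519 genes gave -0.01 log2. It turned to -0.02 and -0.03 log2 without replicate 1 of wild type or of Rarb-null, and to -0.0005 log2 with Col15a1 and Col18a1 counted among these types. No test was made of these medians, since the members were chosen with results of these data known.

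Array by array, fibrillar collagens varied within each genotype. Their median deviation from each gene's own mean was 0.19, 0.13 and -0.11 log2 on the Rarb-null arrays in order of replicate number, and -0.23, 0.18 and -0.02 log2 on the wild-type ones. The 3 arrays above 0 were those high in cell cycle genes, and they came from both genotypes. Basement membrane collagens read 0.0099, -0.15 and -0.14 log2 on the Rarb-null arrays and -0.03, 0.01 and 0.19 log2 on the wild-type arrays, and the other collagens 0.15, 0.05 and 0.05 log2 against -0.13, 0.19 and 0.05 log2. The fibrillar median minus the basement membrane median was 0.18, 0.27 and 0.03 log2 on Rarb-null arrays and -0.20, 0.17 and -0.21 log2 on wild-type arrays, so the groups overlapped in that contrast as well. Wild-type replicate 1 held the lowest value of 7 of the 11 fibrillar genes, and Rarb-null replicate 3 the lowest of 4 of the 8 basement membrane genes.

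**Figure D2:**
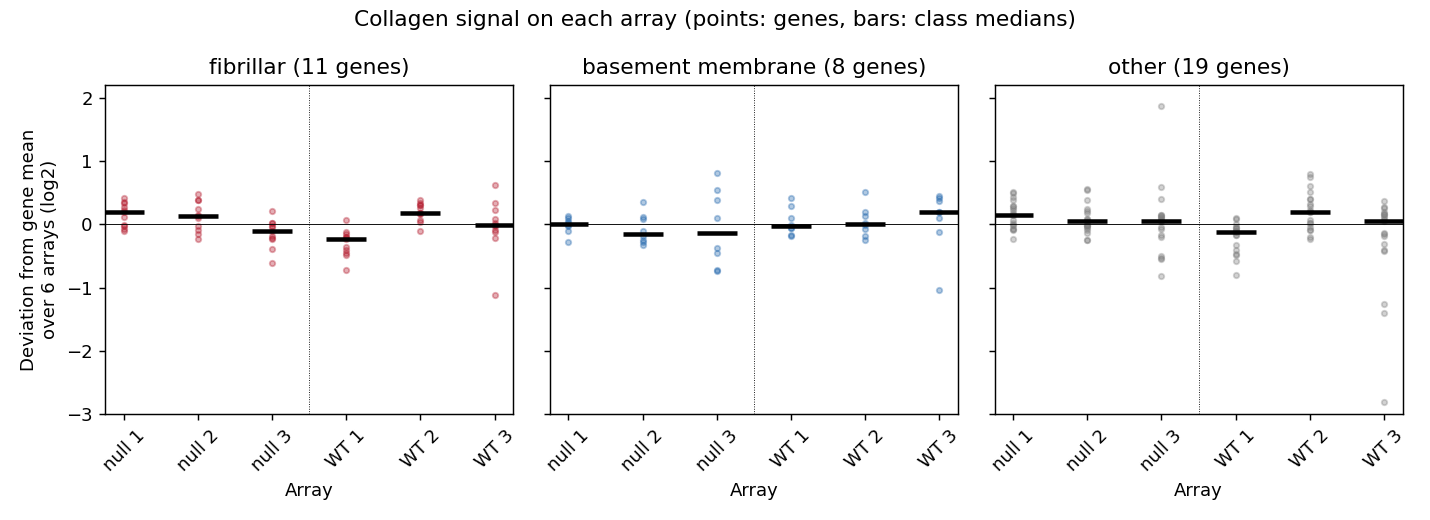
Deviation of each collagen gene from its own mean over the 6 arrays (log2, vertical axis) on each array (horizontal axis), with points for genes and bars for class medians. Fibrillar medians lie at 0.19, 0.13 and 0.18 on Rarb-null replicates 1 and 2 and wild-type replicate 2 and at or under 0 on the 3 other arrays.

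The major fibrillar chains, Col1a1 and Col1a2 of type I and Col3a1 of type III, had overlapping groups, and none passed the test. For Rarb-null, Col1a2 read 14.40, 14.45 and 13.85, and for wild type 13.36, 14.33 and 14.06, here and for later genes in order of replicate number. The groups overlapped, with wild-type replicate 2 among the high arrays and wild-type replicate 1 the lowest. The means were 14.24 ± 0.34 and 13.91 ± 0.50 (SD, n = 3 each), and their difference of 0.32 log2 had a 95% interval of -0.33 to 0.97 (adjusted p = 0.935, limma). Both other probe sets of Col1a2 had the same sign, with differences of 0.57 log2 (mean signal 11.11) and 0.33 log2 (6.96). At the chosen probe set the difference was 0.04 log2 without wild-type replicate 1.

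Col3a1 ranked the arrays in nearly the same way. It read 14.74, 14.79 and 14.44 on Rarb-null arrays and 14.19, 14.71 and 14.43 on wild-type arrays. The groups overlapped, and the difference was 0.21 ± 0.17 log2 (SE), with an adjusted p of 0.931 in limma. Dropping wild-type replicate 1 gave 0.09 log2, and dropping wild-type replicate 2 gave 0.35 log2. The 3 probe sets of Col3a1 gave differences from 0.21 to 0.89 log2, all of the same sign. Col1a1, the partner chain of Col1a2 in type I collagen, read 11.57, 11.37 and 10.84 against 10.78, 11.61 and 11.19. Here wild-type replicate 2 was the highest of all 6 arrays, and the difference was 0.07 ± 0.26 log2 with an adjusted p of 0.991 in limma. Its sign turned without wild-type replicate 1 (-0.14 log2) or Rarb-null replicate 1 (-0.09 log2).

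Type V collagen regulates the width of type I fibrils. Col5a2 read 13.51, 13.73 and 13.01 on Rarb-null arrays and 12.77, 13.43 and 13.03 on wild-type arrays. The pattern was that of Col1a2, with overlapping groups, and the difference was 0.34 log2 (interval -0.21 to 0.89, adjusted p = 0.919, limma). With single arrays left out it ran from 0.19 log2 (without wild-type replicate 1 or Rarb-null replicate 2) to 0.54 log2 (without Rarb-null replicate 3). Col5a1 read 10.83, 10.45 and 9.99 against 10.20, 10.90 and 11.22, the opposite sign at -0.35 log2, with an adjusted p of 0.939 in limma. Leaving out wild-type replicate 1 gave -0.64 log2, and leaving out wild-type replicate 3 gave -0.12 log2. Both other probe sets of Col5a1 were positive, up to 0.27 log2, and their joint mean with the chosen one gave a difference of 0.0030 log2, so the sign of this gene depends on the probe set. Col5a3 differed by -0.04 log2.

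Of the remaining fibrillar genes, Col2a1, Col11a1 and Col11a2 are best known from cartilage. Col11a1 read 6.49, 6.46 and 6.29 on Rarb-null arrays and 5.88, 6.37 and 4.95 on wild-type arrays. The Rarb-null arrays lay close together while wild-type replicate 3 lay far below the others, and the difference was 0.68 log2, 1.60-fold, with an adjusted p of 0.908 in limma. Leaving out wild-type replicate 3 gave 0.29 log2. Col2a1 read 6.52, 6.39 and 6.65 against 6.43, 6.80 and 6.96, a difference of -0.21 log2 that became -0.36 when wild-type replicate 1 was left out and -0.09 when wild-type replicate 3 was. Col24a1 and Col27a1, minor fibrillar chains, had narrow ranges over the 6 arrays, of 0.21 and 0.24 log2, and differences of 0.02 and 0.0011 log2.

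**Figure D3:**
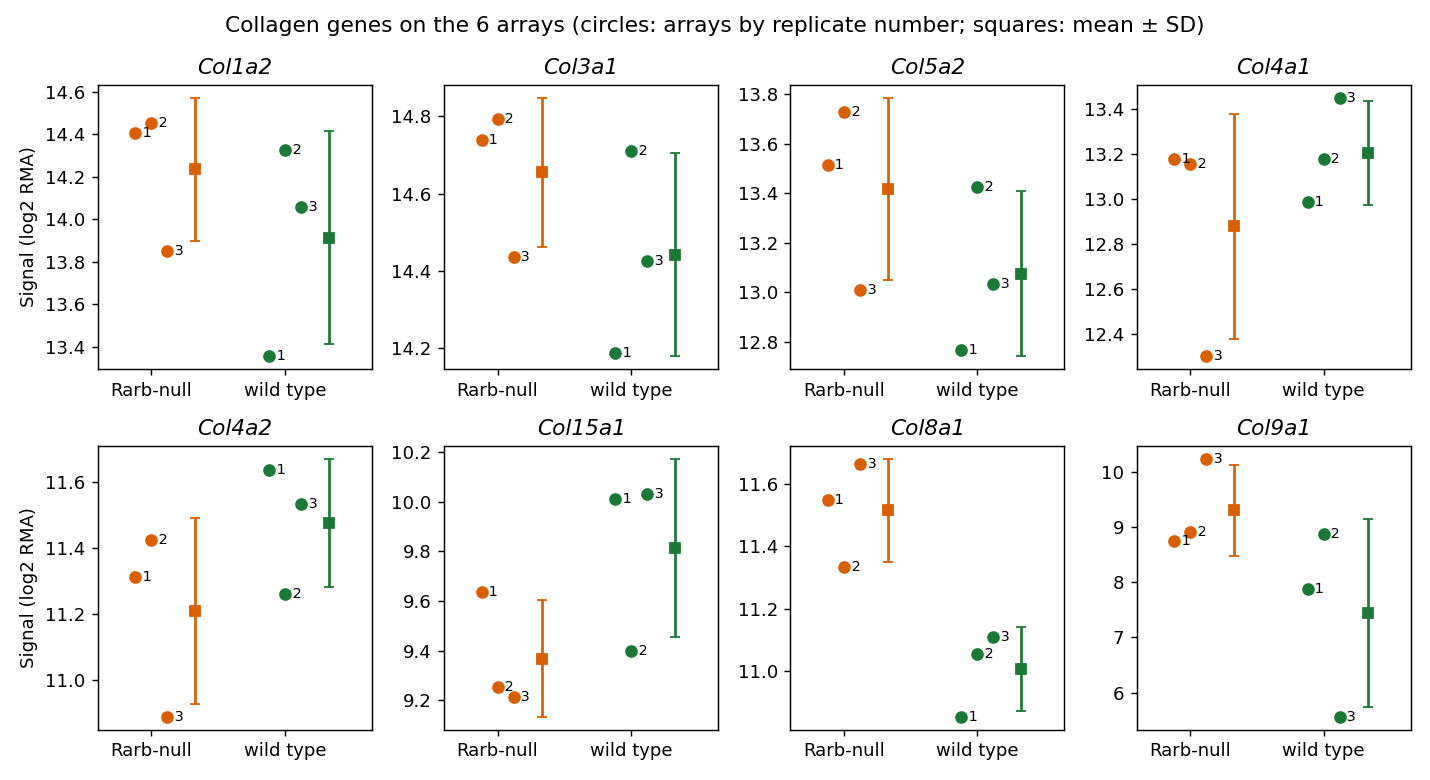
Log2 RMA signal (vertical axes, each panel with its own range that does not start at 0) of 8 collagen genes on the 3 Rarb-null and 3 wild-type arrays, with circles for arrays by replicate number and squares for mean ± SD. The groups overlap in every panel except that of Col8a1, where Rarb-null arrays lie from 11.34 to 11.66 and wild-type arrays from 10.85 to 11.11.

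Col4a1 and Col4a2, which encode the ubiquitous type IV chains and start head to head as printed above, both had a lower Rarb-null mean. Col4a1 read 13.18, 13.16 and 12.30 on Rarb-null arrays and 12.99, 13.18 and 13.45 on wild-type arrays. Only Rarb-null replicate 3 lay clearly below the other 5. The difference was -0.33 log2 (interval -0.93 to 0.27, adjusted p = 0.930, limma), and without Rarb-null replicate 3 it was -0.04 log2. Col4a2 read 11.31, 11.42 and 10.89 against 11.64, 11.26 and 11.53, a difference of -0.27 ± 0.17 log2 (SE), with an adjusted p of 0.914 in limma. It was lowest on the same array as Col4a1, and without that array its difference was -0.11 log2.

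The other type IV chains, Col4a3 to Col4a6, form networks found in fewer tissues. Col4a5 read 8.92, 8.63 and 9.63 on Rarb-null arrays and 8.63, 9.33 and 7.79 on wild-type arrays. It was highest on Rarb-null replicate 3, the array with the lowest Col4a1, and lowest on wild-type replicate 3. The difference was 0.48 log2 (interval -0.49 to 1.44, adjusted p = 0.935, limma), and 0.08 log2 without wild-type replicate 3. The differences of Col4a3, Col4a4 and Col4a6 ran from -0.11 to 0.10 log2. Non-chosen probe sets of Col4a4, Col4a5 and Col4a6 had groups that did not overlap, lower in Col4a4 (-0.22 log2) and higher in Col4a5 (0.58) and Col4a6 (0.36). With Col8a1 they made 4 such probe sets among 76, where 10.4% of all probe sets did not overlap. By direction these were 3 higher, against 4.58% of all, and 1 lower, against 5.86%, and none passed an adjusted p of 0.05.

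Col15a1 and Col18a1 encode multiplexins, heparan or chondroitin sulfate bearing collagens at basement membranes, and Col18a1 gives rise to endostatin. Col15a1 read 9.64, 9.25 and 9.21 on Rarb-null arrays and 10.01, 9.40 and 10.03 on wild-type arrays. Wild-type replicate 2 lay among the Rarb-null arrays and the other wild-type arrays above them. The difference was -0.45 log2 (interval -0.93 to 0.04, adjusted p = 0.908, limma), and it ran from -0.65 to -0.34 log2 when single arrays were left out. Col18a1 read 10.42, 10.77 and 9.70 against 10.25, 10.63 and 10.79, a difference of -0.26 log2, and its sign turned without Rarb-null replicate 3 (0.04 log2). The other probe set of Col18a1 differed by -0.45 log2, also with overlapping groups.

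Col8a1 was the collagen gene whose genotypes separated without overlap. It encodes a chain of type VIII, a short-chain network collagen known from the lining of vessels and the cornea. Col8a1 read 11.55, 11.34 and 11.66 on Rarb-null arrays and 10.85, 11.05 and 11.11 on wild-type arrays. Every Rarb-null array lay above every wild-type array. The means were 11.52 ± 0.17 and 11.01 ± 0.13 (SD, n = 3 each), 1.42-fold apart, with a difference of 0.51 ± 0.13 log2 (SE), which did not pass, with an adjusted p of 0.908 in limma. With single arrays left out the difference ran from 0.43 to 0.60 log2. The 4 other probe sets of Col8a1 had the same sign but smaller differences, from 0.09 to 0.20 log2, and the mean over all 5 differed by 0.20 log2. The authors' deposited table gives this probe set a p-value of 0.0069 and a SAM score, d, of 2.52. Its partner chain Col8a2 differed by 0.07 log2, at signals of 4.42 to 4.60 on all arrays.

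The largest difference and the widest range among collagens belonged to Col9a1, a chain of type IX, which decorates cartilage fibrils. Col9a1 read 8.75, 8.91 and 10.24 on Rarb-null arrays and 7.88, 8.88 and 5.56 on wild-type arrays. The lowest and highest values, on wild-type replicate 3 and Rarb-null replicate 3, lay 4.67 log2 apart, while wild-type replicate 2 fell between Rarb-null replicates 1 and 2. The means were 9.30 ± 0.82 and 7.44 ± 1.70 (SD, n = 3 each), which differed by 1.86 log2, or 3.62-fold (interval -0.08 to 3.79, adjusted p = 0.908, limma). Without wild-type replicate 3 the difference was 0.92 log2, and without wild-type replicate 2 it was 2.57 log2. The other probe set of Col9a1 differed by 0.60 log2 and spanned 1.31 log2 over the 6 arrays. It read 6.78 on wild-type replicate 3 and 6.80 on wild-type replicate 1, so the deep drop on replicate 3 was seen at 1 probe set only. In the authors' deposited table, Col9a1 has a p-value of 0.0437 and is, beside Col8a1, the other collagen gene under 0.05 there.

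All 3 type IX chains were lowest on wild-type replicate 3. Col9a3 read 9.34, 9.39 and 8.88 on Rarb-null arrays and 8.73, 9.22 and 7.43 on wild-type arrays. The difference was 0.75 log2, or 1.68-fold (adjusted p = 0.911, limma), and 0.23 log2 without wild-type replicate 3. Its 2 other probe sets differed by 0.05 and 0.10 log2. Col9a2 differed by -0.05 log2, with wild-type replicate 3 at 6.22 and the other arrays from 6.44 to 7.04. Cartilage and bone markers, 6 of 7 with a higher Rarb-null mean, lay between 0.07 and 0.08 on Rarb-null and between -0.19 and 0.06 on wild-type arrays as list means, and 5 of the 7 had a mean under 6. Sox9, a transcription factor of chondrocytes that ductal epithelium also makes, read 7.90 on wild-type replicate 3 and 8.92 to 9.47 elsewhere. On that array 2 of the 7 markers, Sox9 and Cnmd, were at their lowest, while Comp was at its highest and the 5 others (Acan, Comp, Ibsp, Matn1 and Matn3) lay above their own means. The part of such cells in the type IX values was not tested.

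Col7a1 and Col17a1 anchor epithelia. Col17a1, a transmembrane collagen of the hemidesmosomes of basal epithelial cells, read 8.27, 8.19 and 7.93 on Rarb-null arrays and 8.07, 8.72 and 6.72 on wild-type arrays. The Rarb-null arrays lay close together (SD 0.175) and the wild-type arrays far apart (SD 1.02). Without the low wild-type replicate 3 its difference turned from 0.29 to -0.26 log2. Col7a1, the anchoring fibril collagen beneath epithelia, read 8.18, 8.13 and 6.93 against 7.17, 8.55 and 7.56, which left a difference of -0.01 log2 between groups that each spanned over 1 log2 unit. The arrays high in Col7a1 were again Rarb-null replicates 1 and 2 and wild-type replicate 2.

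Of the epithelial markers, 9 of 10 had a higher Rarb-null mean, and their list mean ranged from -0.10 to 0.37 on Rarb-null and from -0.85 to 0.53 on wild-type arrays, lowest on wild-type replicate 3. Elf5, a transcription factor of luminal progenitor cells, read 8.99 there and from 11.63 to 12.10 elsewhere. Its genotype difference was 1.12 log2 at this probe set and 0.03 log2 at its other one. Trp63, which marks basal cells, read 8.93 on wild-type replicate 3 and from 9.98 to 11.28 elsewhere. In all, 8 of the 10 were at their lowest on that array, and Krt8 and Krt19 were lowest on wild-type replicate 1. Krt5, Krt14 and Cdh1 were nearly as low on Rarb-null replicate 3, at 9.411, 9.64 and 10.19 against 9.406, 9.61 and 10.09. Elf5, Trp63, Epcam, Krt18 and Cldn3 lay further below their values on Rarb-null replicate 3. The part of epithelial content in Col7a1, Col9a1, Col9a3, Col11a1 and Col17a1 was not tested.

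**Figure D4:**
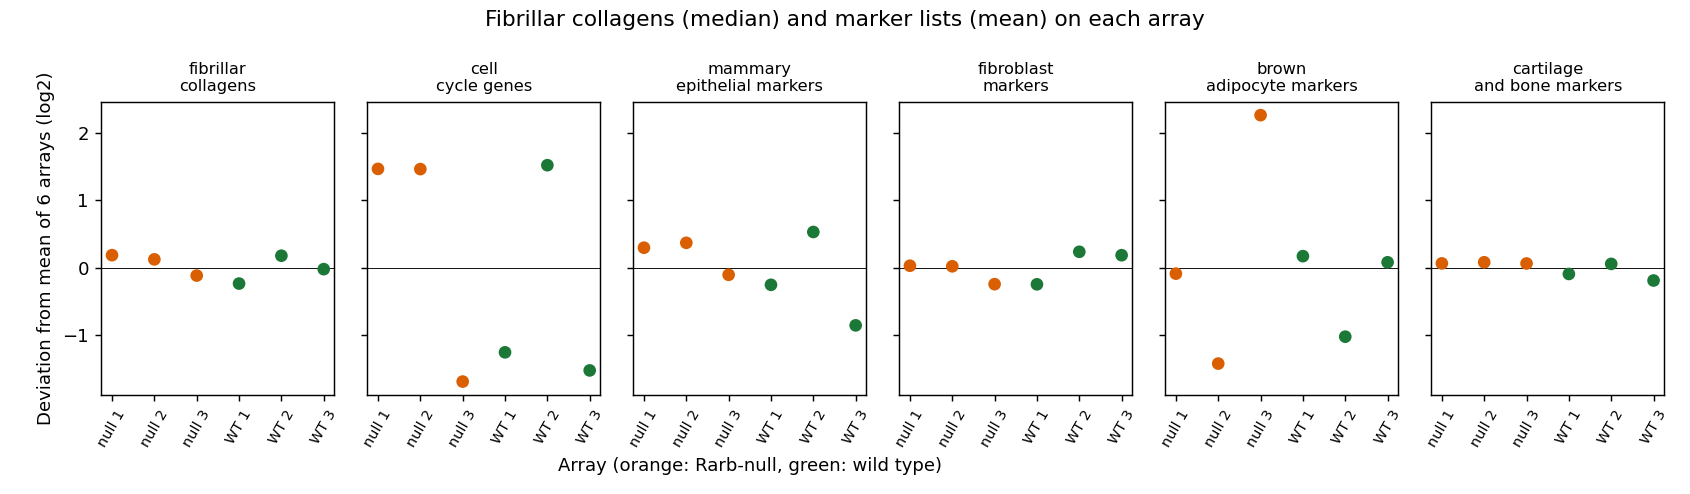
Deviation from the mean of the 6 arrays (log2, vertical axis) on each array for the fibrillar collagens (median of 11 genes) and for 5 marker lists (mean over their genes), orange for Rarb-null and green for wild type. Cell cycle genes stand at 1.47, 1.46 and 1.52 on 3 arrays of both genotypes, the epithelial mean is lowest at -0.85 on wild-type replicate 3, and brown adipocyte markers reach 2.26 on Rarb-null replicate 3.

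Type VI collagen builds the beaded microfilaments around fat and muscle cells. Col6a1 read 12.27, 12.04 and 11.55 on Rarb-null arrays and 11.98, 12.23 and 12.20 on wild-type arrays, and Col6a2 read 12.77, 12.60 and 12.07 against 12.50, 12.82 and 12.99. Both were lowest on Rarb-null replicate 3, as were Col4a1, Col4a2, Col5a1, Col7a1, Col15a1, Col16a1 and Col18a1, 9 of 38 genes. More collagens, 13 of 38, were lowest on wild-type replicate 1, and 7 were highest on Rarb-null replicate 3. The differences were -0.19 log2 for Col6a1 and -0.29 log2 for Col6a2, with adjusted p of 0.951 and 0.926 in limma. Without Rarb-null replicate 3 they were 0.01 and -0.08 log2. The probe set shared by Col6a3 and a second symbol read 12.99, 13.16 and 12.70 against 12.48, 12.81 and 12.68, a difference of 0.29 log2 between overlapping groups. Of 10 fibroblast markers, 4 were lowest there (Dpt, Fbln2, Pdgfrb and Thy1), 1 was highest there (Pdgfra, at 12.55), and 4 lay above their own means (Dcn, Mfap5, Pdgfra and Pi16). The fibroblast list as a whole, 6 of 10 lower on Rarb-null, ranged from -0.24 to 0.03 on Rarb-null and from -0.24 to 0.24 on wild-type arrays. The smooth muscle and pericyte list, 7 of 8 lower, stood at -0.24 on Rarb-null replicate 3, where 5 of 8 markers were lowest. On other arrays it lay between -0.04 and 0.22. Adipocyte (7 of 8 lower) and endothelial (5 of 8) lists stood at -0.14 and -0.09 on Rarb-null replicate 3. Both were lowest on wild-type replicate 2, at -0.19 and -0.31. The part of these cell types in the collagen values was not tested.

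Fibril-associated collagens, which bind the surface of larger fibrils, include, beside type IX, Col14a1 and Col12a1. Col14a1 read 11.37, 11.27 and 11.81 on Rarb-null arrays and 10.42, 11.53 and 10.91 on wild-type arrays. Wild-type replicate 2 lay within the Rarb-null range and the other wild-type arrays below it. The difference was 0.53 log2, 1.44-fold, with an interval of -0.15 to 1.20 and an adjusted p of 0.909 in limma. Both other probe sets agreed in sign, and without wild-type replicate 1 it was 0.26 log2. Col12a1, a close relative, read 7.13, 7.05 and 7.04 against 6.94, 7.34 and 7.19, a difference of -0.08 log2. Col16a1 differed by 0.09 log2 over a range of 1.13 log2, and leaving out single arrays moved this from -0.14 (Rarb-null replicate 1) to 0.41 log2 (wild-type replicate 2), with a negative sign also without wild-type replicate 1 or 3. The remaining other collagens, Col10a1, Col13a1, Col19a1, Col20a1, Col22a1, Col23a1 and Col25a1, differed by -0.14 to 0.21 log2, with ranges over the 6 arrays from 0.22 to 0.76 log2.

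Several probe sets of the same collagen gave a check on the sign of a difference. Of 25 genes with more than 1 probe set, 17 had the same sign in all of them and 8 did not, and 27 of the 38 other probe sets shared the sign of the chosen one. Genes without agreement were Col4a3, Col4a4, Col5a1, Col5a3, Col20a1, Col22a1, Col23a1 and Col24a1. Col5a1 showed the widest disagreement in sign, 0.61 log2 between its probe sets.

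**Figure D5:**
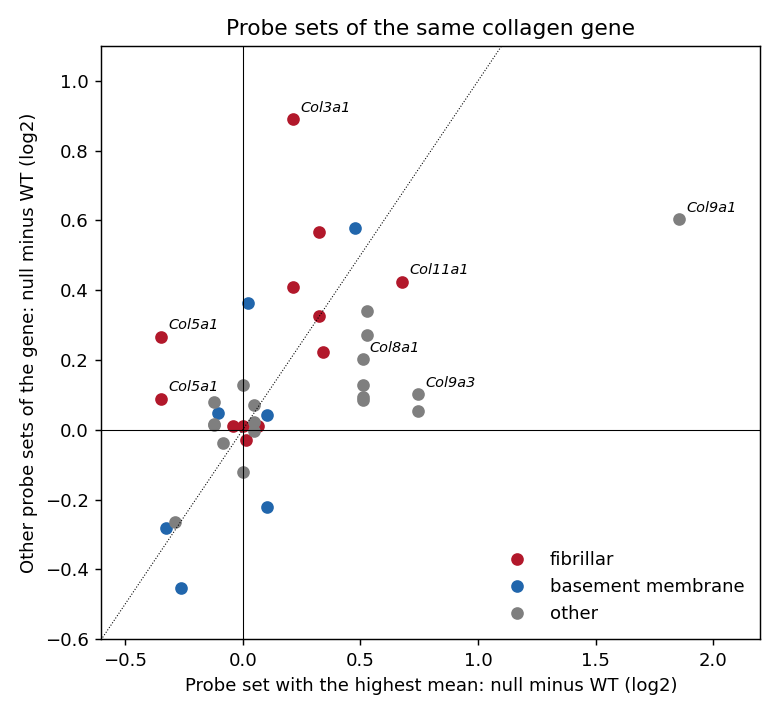
Difference between group means (Rarb-null minus wild type, log2) of the 38 other probe sets (vertical axis) against that of the chosen probe set of the same gene (horizontal axis), by class, with a dotted line of equality. Points of Col5a1 lie in the quadrant of opposite sign, and those of Col8a1, Col9a1 and Col9a3 lie below the line.

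Genes that make, cross-link and bind collagen were read from lists of their enzymes, chaperones, receptors and fibril partners. None of the 15 measured hydroxylases and chaperones, 11 processing and cross-linking genes, 8 receptors and 12 fibril regulators passed an adjusted p of 0.05 in limma in either direction. Of them, 1, 1, 2 and 0 reached an unadjusted p under 0.05, where 5.3% of all genes did. Their median differences were -0.0093, 0.15, -0.02 and 0.05 log2. Among hydroxylases, P3h2, which hydroxylates prolines of type IV collagen, had means of 8.82 ± 0.09 (Rarb-null) and 8.53 ± 0.10 (wild type; SD, n = 3 each here and below) without overlap. Plod2, a lysyl hydroxylase of cross-link sites, read 8.89 ± 0.20 against 8.21 ± 0.74. The second probe set of either gene gave the same direction.

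Genes of the processing list with the smallest p were Pcolce and Tll1. Pcolce, which enhances the removal of procollagen C-propeptides, read 10.62 ± 0.23 against 11.43 ± 0.28. Tll1, a propeptide protease, read 7.32 ± 0.30 against 6.93 ± 0.35. The receptors chosen in the same way were Itgb1 and Ddr1. Itgb1, the shared beta chain of collagen-binding integrins, read 12.10 ± 0.17 against 11.37 ± 0.35. Its 4 further probe sets differed by 0.58, 0.41, 0.00 and -0.15 log2. Ddr1, a receptor tyrosine kinase activated by collagen in epithelial cells, read 11.90 ± 0.34 against 12.54 ± 0.30. Its 7 further probe sets were lower too, by differences from -0.73 to -0.01 log2. The groups of Pcolce, Itgb1 and Ddr1 did not overlap. With P3h2, such genes numbered 1 of 15, 1 of 11, 2 of 8 and 0 of 12 in the lists, where 10.6% of all genes did not overlap. The leading fibril regulators were Fn1, fibronectin, at 0.63 log2 and Sparc, a collagen-binding matricellular protein, at -0.28 log2. Adjusted p in limma was between 0.908 and 0.914 for these 8 genes.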

How the data were processed

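Total RNA of 6 samples was hybridised as biotin-labelled cRNA, per the labels' protocols. The submitters' processing notes name RMA, without version, for the deposited log2 values, a method that gives arrays a common distribution and compresses differences of dim probe sets. A second deposited table gives the authors' log2 fold changes, a SAM score (d) and a p-value per probe set, per the file headers, with settings not given in the sources used here, and its fold changes differed from those of the value table by at most 7.4e-06. The number of arrays limits the precision. Of 45101 probe sets, 64 controls were left out.

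The 6 arrays were fitted with limma 3.58.1 in R 4.3.3 (lmFit, eBayes), with genotype as the only term. Tests were two-sided, p was adjusted over all 45037 probe sets by Benjamini-Hochberg, and the threshold was 0.05. The fit was tested on simulated data with independent noise for each probe set. There it recovered 60% of 2-fold and 88% of 4-fold changes, and 4 unchanged probe sets were called. Patterns shared by many genes, such as that of the cell cycle genes, were not simulated, so these shares need not hold for the real arrays. Figures used matplotlib 3.10.9. Old symbols of other genes were updated through RefSeq. The members, classes and lists were chosen with earlier results of these data known. Values on every array were given for 13 collagens of connective tissue, for genes without overlap, the 5 smallest p in each direction and the 5 widest ranges. In each list of other collagen-related genes the 2 with the smallest p were named. Whether same-numbered replicates pair could not be decided with 3 arrays per group. Deviations of same-numbered replicates correlated at -0.20, 0.45 and 0.29 for numbers 1 to 3, and those of different numbers at -0.54 to 0.38. The most alike arrays still differed by up to 4.14 log2 at a probe set. Col6a4 and Col26a1, deposited under older names, were left out.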

Additional observations from a re-analysis of the deposited data

How the results depend on the processing

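Arrays were also centred on their medians or quantile normalized again, weighted, blocked by replicate number or left out singly, dim probe sets were dropped (the lowest 40%, or those with a mean below 6), the prior was made robust with a trend, and each gene's probe sets were averaged. In all of them 0 collagen genes passed, and the smallest adjusted p in limma was 0.341, for Col15a1 without wild-type replicate 2. Over all probe sets 0 passed, except 1 without Rarb-null replicate 2, a range of 0 to 1 with single arrays left out. At an unadjusted p under 0.05, collagens numbered 1 of 38, 2 with array weights, 4 with the replicate block (Col8a1, Col9a3, Col11a1 and Col15a1) and 7 without wild-type replicate 2. They numbered 3 without wild-type replicate 1 and 2 without Rarb-null replicate 1 or 3, and Col9a1 took the place of Col8a1 when probe sets were averaged. At the same cut, of all 45037 probe sets, 2351 (5.22%) were counted, 2795 with array weights and 3418 with the replicate block. Without the lowest 40% the count was 1566, out of a smaller set. Leaving out 1 array, they numbered 2035, 1147 and 2449 of 45037 (Rarb-null replicates 1, 2 and 3), 1307 (wild-type replicate 3) and 4418 (wild-type replicate 2). For wild-type replicate 1 no count over all probe sets is given here, so its 3 collagens cannot be set against a share.

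The replicate block left the class medians at 0.02, -0.18 and 0.05 log2 for fibrillar, basement membrane and other collagens. The basement membrane median was -0.0428 log2 for type IV chains alone. With single arrays left out the medians ran from -0.06 to 0.09, from -0.23 to -0.09 and from -0.03 to 0.05 log2. Genes with a mean of at least 6, a choice made after seeing the data, gave 0.07, -0.26 and 0.02 log2. Of 38 genes 19 kept the sign of their difference under every alternative. RMA can compress differences of dim collagens such as Col8a2 and Col24a1, so small values there are no evidence of equal expression.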
